A study of Mus musculus and blank sample with 191 samples.

Results

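The genes described here are 33 interferon-stimulated genes, the transcripts that cells switch on when interferon reaches them, measured in the uterus of mice that carry 1 mutant copy of the thyroid hormone receptor alpha 1 gene and of their wild-type counterparts. The members were taken from a list of symbols (transcription factors Irf1, Irf7, Irf9 and Stat2, the Ifit, Oas, Mx and guanylate-binding families, the Isg15 system, nucleic acid sensors and other effectors), and every listed symbol was present among the 14881 targets of the filtered table and among the 19962 targets of the count table. Regions of epithelium and of stroma were outlined on uterus sections and read by digital spatial profiling, in which barcoded probes against the whole mouse transcriptome are released by light from 1 region at a time and counted by sequencing. The first plate held 60 epithelial and 35 stromal regions from 14 labelled mice, and the second plate a further 94 regions. By the study's methods the regions included mucosa, glands and stroma, and the labels do not separate mucosa from glands. The study also reports fewer glands and squamous metaplasia in the mutant endometrium, so epithelial regions of the genotypes may differ in make-up. Mutant mice, labelled PV/N and called PV1 to PV6 here in order of age, were 2.4, 2.4, 4.0, 4.2, 5.9 and 6.3 months old. Wild-type mice, labelled N/N and called WT1 to WT8, were 4.0, 4.5, 5.0, 5.4, 6.3, 6.3, 7.4 and 9.0 months old, and WT4 had no stromal region on the first plate. The PV mutation is a germline knock-in that gives a dominant negative receptor, so it is present in epithelium, stroma and every other cell of a PV/N mouse. The tissue was taken as small cores on tissue microarrays, and the study's description counts 13 mice where the labels give 14.

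Counts were summed per mouse and compartment, which made the mouse the replicate, and the depth of a mouse lay between 55661 and 13102749 counts for its epithelium and between 76398 and 4969176 for its stroma. The compartment labels of the first plate held against their markers: 7 of 7 epithelial markers (keratins 8, 18 and 19, Epcam, Cdh1, Cldn4 and Cldn7) were higher in epithelium, 7 of 7 fibroblast markers were higher in stroma, and 0 of the 95 regions fell on the wrong side of the midpoint between the median marker scores of both compartments, epithelial minus fibroblast. On the second plate 18 of 57 regions labelled epithelium and 18 of 37 labelled stroma did so, and that plate was therefore used only as an alternative. PV2 was by far the thinnest mouse, with 1 region in each compartment: 30 of the 33 members had 3 counts or fewer in its epithelium and 22 did in its stroma, and since the deposited table shows a 1 where no count was seen, its low values have no order. Most members stood clear of the negative probe, whose targets are absent from the mouse genome. The exceptions were Rsad2, with a median ratio to the negative probe of 1.37 in epithelial and 1.93 in stromal regions, and Mx2, with 1.98 and 3.40. Ifit2 came next in epithelium, at 2.67, and was at 8.15 in stroma.

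Interferons of type I and type III are secreted when cells sense viral or misplaced nucleic acid, and they act through receptors (Ifnar1 with Ifnar2 for type I) that activate the kinases Jak1 and Tyk2. These phosphorylate transcription factors, Stat2 among them, which join Irf9 and bind a DNA element called the interferon-stimulated response element, ISRE, in the promoters of the target genes. Interferon gamma works through its own receptor and a different element, GAS. The female reproductive tract is peculiar in that its epithelium makes interferon epsilon (Ifne) without infection, under hormonal control.

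Promoter sequence was available from RefSeq for 25 of the 33 members (assembly GRCm38.p6, which carries the mm10 coordinates that the labels name). A core of the ISRE was searched as GAAANNGAAA, which reads TTTCNNTTTC on the other strand, in the 250 bases before each annotated start. It was found for 10 of the 25 members, or 40%, against 3.46% of all 27025 genes with a promoter of that length. By the compartment comparison given later, matches were found in 5 of 7 members higher in stroma, 1 of 5 higher in epithelium and 4 of 13 that were not called. A link between matches and compartment was not tested, and the called members Usp18, Mx2 and Oas2 had no promoter sequence here. The GAS core TTCNNNGAA, which is its own reverse complement, was found for 6 of 25 members, or 24%, against 8.13% of all genes. A match is only a run of letters, and no match says nothing of binding. The following windows are shown because they do not run into any annotated gene and because they set members with 1, 2 or 3 matches beside 1 without, with each ISRE match in capitals and the sequence written 5′ to 3′ towards the start of the gene. That of Isg15 (chr4:156200819-156201068, minus strand) held 3 overlapping matches, the last ending 57 bases before the start. Bst2 (chr8:71537473-71537722, minus strand) held 2, Gbp2 (chr3:142620413-142620662, plus strand) held 1 that ended 50 bases before the start, and Rsad2 (chr12:26456453-26456702, minus strand) held 1 that ended 111 bases before it. The window of Ifitm3 (chr7:141010745-141010994, minus strand) held none.
Isg15: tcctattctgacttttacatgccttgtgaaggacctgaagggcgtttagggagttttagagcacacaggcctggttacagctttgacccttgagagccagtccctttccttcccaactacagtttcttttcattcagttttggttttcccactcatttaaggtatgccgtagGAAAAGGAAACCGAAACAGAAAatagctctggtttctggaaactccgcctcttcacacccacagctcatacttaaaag
Bst2: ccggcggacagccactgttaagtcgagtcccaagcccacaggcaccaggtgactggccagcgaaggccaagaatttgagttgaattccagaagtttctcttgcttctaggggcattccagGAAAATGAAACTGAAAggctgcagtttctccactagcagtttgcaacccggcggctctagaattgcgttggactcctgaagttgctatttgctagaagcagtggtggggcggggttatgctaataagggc
Gbp2: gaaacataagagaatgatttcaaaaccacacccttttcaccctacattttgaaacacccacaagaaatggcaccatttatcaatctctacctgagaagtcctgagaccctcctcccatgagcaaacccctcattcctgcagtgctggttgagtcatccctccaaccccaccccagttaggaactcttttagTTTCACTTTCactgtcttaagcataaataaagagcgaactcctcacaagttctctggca
Rsad2: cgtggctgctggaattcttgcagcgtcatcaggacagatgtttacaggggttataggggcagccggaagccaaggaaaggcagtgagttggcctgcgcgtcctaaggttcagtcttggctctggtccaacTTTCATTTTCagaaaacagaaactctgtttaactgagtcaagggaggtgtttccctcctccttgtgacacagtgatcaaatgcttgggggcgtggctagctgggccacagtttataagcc
Ifitm3: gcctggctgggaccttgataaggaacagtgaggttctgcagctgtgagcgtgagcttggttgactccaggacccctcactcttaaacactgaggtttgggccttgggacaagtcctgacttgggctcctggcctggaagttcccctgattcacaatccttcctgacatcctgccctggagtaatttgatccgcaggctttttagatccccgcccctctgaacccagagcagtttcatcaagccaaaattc

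Within mice, the members went both ways: 6 of 33 were higher in epithelium and 9 were higher in stroma in the 13 mice that had both, and 18 were not called (edgeR's quasi-likelihood test with the mouse as a block, adjusted p under 0.05). Among all targets, 28.4% were called higher in epithelium and 34.6% higher in stroma. The median log2 fold change, epithelium over stroma, was -0.05 over the members and -0.05 over all targets. With upper-quartile scaling 3241 targets were called higher in epithelium and 6443 in stroma, against 4229 and 5151, and the members split into 6 and 11 with a median of -0.19, while the median of all targets moved to -0.18. Of the Isg15 system Trim25 was higher in epithelium and Usp18 in stroma, and neighbours in a gene cluster differed in whether they were called, as the plot of compartment differences shows.

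**Figure D1:**
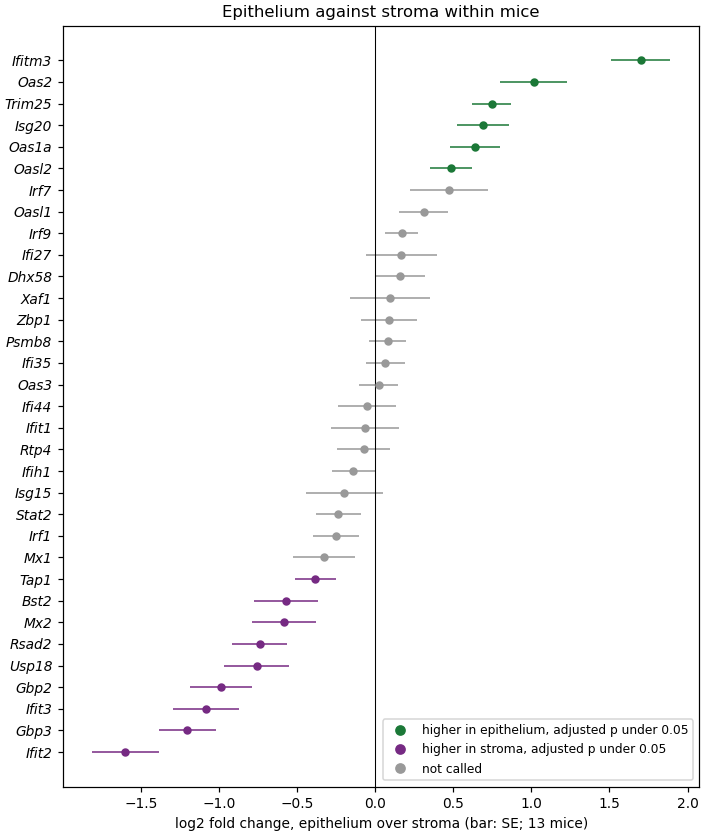
Log2 fold change of each of the 33 members, epithelium over stroma, with its standard error as a bar, over 13 mice. Ifitm3 stands at 1.70 on the epithelial side and Ifit2 at -1.60 on the stromal side, and 18 members in grey were not called.

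Outside the Oas family 3 members were called higher in epithelium, namely Ifitm3, Trim25 and Isg20. Ifitm3, a membrane protein that blocks entry of enveloped viruses, had log2 CPM of 8.72, 10.50 and 10.89 in the lowest, median and highest of 14 epithelia and 7.52, 8.49 and 9.49 in 13 stromata. It was higher in epithelium in 13 of 13 mice, with a log2 fold change of 1.70 ± 0.19 (SE, adjusted p = 3.2e-07, exact sign-flip p = 0.000244, the smallest that 13 pairs can give). Trim25, the ubiquitin ligase that activates the RNA sensor RIG-I, was also higher in 13 of 13 mice, by 0.74 ± 0.12 (adjusted p = 3.6e-05), from levels of 5.52, 6.14 and 7.03 in epithelium and 3.46, 5.21 and 6.36 in stroma, where the lowest is the level of a single count in PV2. Isg20, an exonuclease that degrades viral RNA, had 5.18, 6.47 and 7.57 in epithelium and 5.42, 5.79 and 6.59 in stroma, and was higher in epithelium in 10 of 13 mice (0.69 ± 0.17, adjusted p = 0.0014, exact p = 0.012).

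The Oas family makes or resembles the enzymes that synthesise short linked adenylate chains, the activators of RNase L. Of its 5 members, 3 were higher in epithelium: Oas2 by 1.01 ± 0.21 (adjusted p = 0.00043), Oas1a by 0.64 ± 0.16 (adjusted p = 0.0020) and Oasl2 by 0.48 ± 0.14 (adjusted p = 0.0044). Oas2 levels were 3.42, 5.63 and 8.18 in epithelium and 3.56, 4.79 and 6.65 in stroma, which overlapped widely although 10 of 13 mice had more in their epithelium. Oas3 lies between Oas2 and Oas1a on chromosome 5 (GRCm38.p6) and was not called, with a fold change of 0.02 ± 0.12. Oasl1 was not called at 0.31 ± 0.16. With the second plate added, where many regions fell on the wrong side by their markers, Oas2, Oas1a and Oasl2 were not called. On the first plate alone they were not called by limma on log2 of the authors' upper-quartile (Q3) values plus 1. The adjusted p there was 0.056, 0.20 and 0.13.

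On the stromal side stood the Ifit proteins, which bind viral RNA ends, and the guanylate-binding proteins, which attack vacuoles and are strongly induced by interferon gamma. Ifit2 had 3.04, 3.99 and 5.30 in epithelium and 4.59, 5.09 and 7.58 in stroma, and was higher in stroma in 13 of 13 mice (log2 fold change -1.60 ± 0.21, adjusted p = 3.1e-06, exact p = 0.000244). Ifit3 stood at 3.46, 4.69 and 7.00 in epithelium and 4.49, 5.58 and 7.95 in stroma, and was higher in stroma in 12 of 13 mice (-1.08 ± 0.21, adjusted p = 0.00019), the exception being WT3. Ifit1, their neighbour on chromosome 19 within a span of 99.5 kb, was not called at -0.07 ± 0.22, and 6 of 13 mice had more of it in epithelium. Gbp3, at 2.75, 4.85 and 6.48 in epithelium and 4.65, 5.66 and 8.17 in stroma, differed by -1.20 ± 0.18 (adjusted p = 1.3e-05). Gbp2, at 3.24, 4.23 and 6.35 and 3.46, 5.26 and 7.98, differed by -0.99 ± 0.20 (adjusted p = 0.00027).

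The remaining stromal calls were Usp18, which strips Isg15 from proteins and damps receptor signalling (-0.76 ± 0.21, adjusted p = 0.0036), the radical enzyme Rsad2 or viperin (-0.74 ± 0.18, adjusted p = 0.0012), Mx2 (-0.58 ± 0.21, adjusted p = 0.019), the virion tether Bst2 (-0.57 ± 0.20, adjusted p = 0.021) and the peptide transporter subunit Tap1 (-0.38 ± 0.13, adjusted p = 0.016). Rsad2 and Mx2 are also the members nearest the negative probe. For Mx2 and Tap1 the exact sign-flip test on unweighted mice gave p = 0.18 and 0.49, and 4 of 13 mice went the other way for each. PV2 was among the 4 both times. It stood at 2.06 for Tap1, from 3 epithelial and 1 stromal counts, and at 0.53 for Mx2, from 1 and 1. Mx2 lost its call without PV3 (adjusted p = 0.053) or without PV4 (0.052), and Bst2 without PV6 (0.053) or without WT6 (0.051). The 4 transcription factors were not called in either direction: Irf7 at 0.47 ± 0.25, Irf9 at 0.17 ± 0.11, Irf1 at -0.25 ± 0.15 and Stat2 at -0.24 ± 0.15. Isg15 itself, the ubiquitin-like modifier, was at -0.20 ± 0.25, the 3 sensors Ifih1, Dhx58 and Zbp1 lay between -0.14 and 0.16, and Ifi27, Ifi35, Ifi44, Xaf1, Rtp4, Psmb8 and Mx1 were likewise not called.

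Stromal regions also held more immune and vascular transcripts. Of 8 macrophage markers 7 were higher in stroma (median log2 fold change -2.44), as were 3 of 3 general leukocyte markers (-1.93) and 5 of 5 endothelial markers (-2.08), and none of these lists had a member higher in epithelium. The mean level of the macrophage list ran from 3.38 to 5.44 in the epithelium of PV/N mice and from 4.57 to 7.15 in their stroma, and from 4.36 to 5.23 and from 5.82 to 8.13 in N/N mice. Their part in the stromal calls was not tested, and in summed regions more cells of a type and more RNA per cell cannot be told apart.

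Fitted within each genotype, 2 members were called higher in epithelium and 9 higher in stroma in PV/N mice, where 22.7% and 26.7% of all targets were called. In N/N mice 8 members were higher in epithelium and 5 in stroma, where the shares of all targets were 22.1% and 26.8%. Of the 5 Oas family members 0 were called in PV/N mice and 3 were called higher in epithelium in N/N mice. The estimates were nevertheless above 0 for 5 of 5 in PV/N and for 4 of 5 in N/N mice. Oas2 was at 0.79 ± 0.33 in PV/N (adjusted p = 0.057) and at 1.17 ± 0.28 in N/N. Irf7 and Irf9 were also called higher in epithelium in N/N mice (0.76 ± 0.31 and 0.34 ± 0.13, adjusted p = 0.046 and 0.035), and not in PV/N mice. Isg20 was at 0.12 ± 0.20 in PV/N and at 1.09 ± 0.17 in N/N mice, where 7 of 7 had more in epithelium. Usp18 was at -1.29 ± 0.28 in PV/N (adjusted p = 0.0012) and at -0.39 ± 0.24 in N/N. Ifi27, a mitochondrial apoptosis-linked protein, was at -0.37 ± 0.31 and 0.57 ± 0.27. Neither these nor any other target differed between genotypes by the interaction term at an adjusted p under 0.05 (0 members and 0% of targets), and the adjusted p of the 3 was 0.58, 0.66 and 0.67 for Isg20, Usp18 and Ifi27. At an unadjusted p under 0.05 there were 6 members with a negative interaction and 0 with a positive one, beside 3.88% and 3.29% of all targets. The interaction estimate was negative for 28 of 33 members, with a median of -0.40 against -0.0045 over all targets, and without PV6 that median was -0.18 and without WT3 -0.28. Marker genes of stromal cells had estimates of the same sign: the estimate was negative for 7 of 7 fibroblast markers (median -0.75, 4 of them at an unadjusted p under 0.05), 5 of 5 endothelial markers (-0.39), 4 of 5 smooth muscle markers (-0.66) and 4 of 4 measured T cell markers (-0.38), while 6 of 7 epithelial markers were positive (0.14). The mean level of the fibroblast list ran from 5.25 to 6.70 in PV/N and from 5.98 to 7.53 in N/N epithelium, and from 8.30 to 10.47 and from 9.23 to 10.14 in stroma. Their part in the interaction estimates was not tested.

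Levels of these genes also differed widely between individual mice of the same genotype. Isg15 in epithelium had log2 CPM of 3.66, 5.08 and 8.09 in the lowest, median and highest of 6 PV/N mice and of 3.99, 5.47 and 8.05 in 8 N/N mice, a 21.6-fold and a 16.7-fold range. The high mice were PV4 (8.09), PV5 (7.47), WT3 (8.05), WT8 (7.03) and WT7 (6.99), while PV1, PV2, PV6 and WT1 lay at or below 3.99. Irf7, the transcription factor that amplifies type I interferon production, ran from 3.89 in PV6 to 8.50 in PV4 among PV/N epithelia and from 4.76 in WT1 to 8.83 in WT8 among N/N epithelia. Oas2 went from 3.42 in WT1 to 8.18 in WT8, a 27.1-fold range within wild-type mice. In each of these genes the genotypes overlapped over most of their range.

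**Figure D2:**
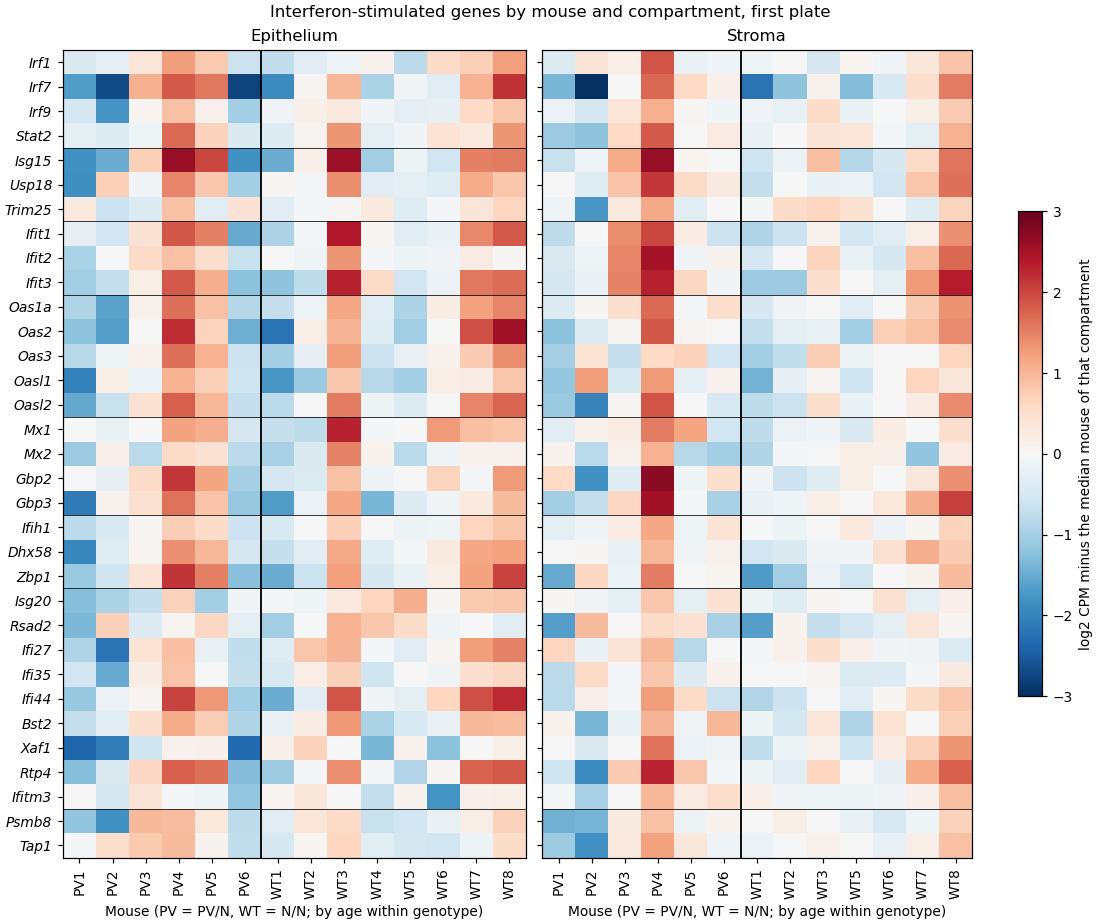
Level of each member (rows, grouped by role) in each mouse (columns), as log2 CPM minus the median mouse of that compartment, for epithelium (left) and stroma (right). PV4 and WT8 are high in both compartments, WT3, WT7 and PV5 mainly in epithelium, and PV1 and WT1 are low in both. The stroma of WT3 and of WT7 is 1 region each.

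Members moved together within a mouse. PV4 was above the median epithelium for 32 of 33 members, by a median of 1.25, and above the median stroma for 33 of 33, by 1.53, where the median over all 14881 targets was -0.02 and 0.00. WT8 was above for 32 of 33 members in both, by 0.95 in epithelium and 0.88 in stroma. WT3 was above for 32 of 33 members in epithelium, by 1.14, but for 19 in stroma, by 0.07. The stroma of WT3 was 1 region, and its epithelium was 2 regions that differed widely, as given below. PV5 was high in epithelium (0.75, 28 of 33) and not in stroma (-0.01, 15 of 33), and WT7 had 0.77 in epithelium and 0.21 in stroma, which was 1 region. At the low end PV1 was below the median epithelium for 32 of 33 members, by -1.03, PV6 for 32, by -0.77, and WT1 for 29, by -0.70. PV4 held the highest level of all 14 epithelia for 16 members and of all 13 stromata for 29, positions it held for 6.63% and 6.78% of all targets.

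Other genes of the pathway, fixed as separate lists, moved in the same mice. In PV4 stroma the median deviation was 1.90 over 12 genes of the interferon gamma list (guanylate-binding and immunity-related GTPases, Cxcl10 and others), 1.11 over 42 other interferon-stimulated genes and 0.72 over 12 genes of MHC class I presentation. In WT8 stroma the same lists stood at 0.99, 0.75 and 0.40, and in WT3 epithelium at 0.78, 0.57 and 0.47. Receptors and their signalling proteins stood at 0.75, 0.36 and -0.03. The 6 measured interferon ligand genes had medians of -0.22 in PV4 stroma, 0.08 in WT8 stroma and 0.10 in WT3 epithelium, and were highest in PV2 stroma (1.21), where few counts were read. Markers of macrophages stood at 0.18 in PV4 stroma, 1.37 in WT8 stroma and 0.27 in WT3 epithelium, and those of leukocytes in general at 0.54, 0.67 and -0.18. Their part in these levels was not tested.

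The spread between mice of 1 genotype was wider for the members than for targets at large. The median standard deviation of log2 CPM over 6 PV/N epithelia was 1.10 for members and 0.51 for all targets, and 18 of 33 members exceeded 1 against 5.98% of targets. Over 8 N/N epithelia it was 0.76 and 0.31, over PV/N stromata 0.94 and 0.50, and over N/N stromata 0.64 and 0.36. Leaving out PV2 gave 1.07 and 0.42 in PV/N epithelium. Irf7 spread most in PV/N epithelium (SD 2.17), and Ifitm3 least (SD 0.53). Over the regions of the first plate, differences between mice took up a median of 59.0% of a member's variance in epithelium and 81.3% in stroma, beside 45.3% and 55.2% for all targets. Oas2 in stroma reached 92.4%, and Psmb8, an immunoproteasome subunit, was lowest in epithelium at 34.7%. These shares include differences between genotypes and were not corrected for the number of regions per mouse. Mice with a single region add no spread within a mouse, so the shares of epithelium and stroma are not comparable with each other.

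**Figure D3:**
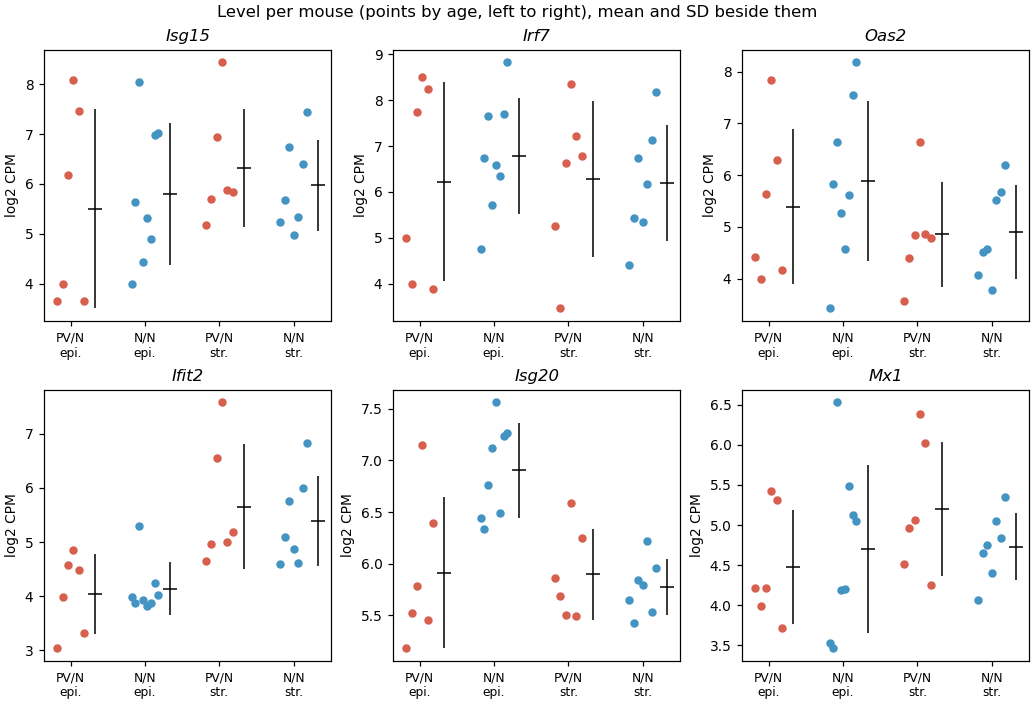
Log2 CPM of 6 members in each mouse (points, in order of age from left to right within a group), by genotype and compartment (epi., epithelium, and str., stroma), with the mean and SD of each group beside the points. Isg15, Irf7 and Oas2 span several log2 units within each genotype, Ifit2 is lower in epithelium than in stroma, and Isg20 in PV/N epithelium lies mostly below N/N epithelium.

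The members could also differ between regions of a single mouse. WT3 contributed 2 epithelial regions, and 1 of them held more of all 33 members than the other, by a median of 2.28 on the log2 scale of the Q3-normalised values plus 1, while the median over all targets was -0.02. In 22 of 33 members the difference exceeded 2, as it did in 1.21% of targets. Isg15 had Q3 values of 15.5 and 427 in the regions, from 24 and 379 counts. Ifit3 had 5.80 and 209, Irf7 15.5 and 317, and Oas2 5.80 and 160. Ifitm3 (803 and 1132) and Ifi27 (168 and 204) differed little. Interferon receptors were level, with 43.2 and 42.8 for Ifnar1 and 43.8 and 42.8 for Ifnar2, and Ifne had 8.38 and 15.8, from 13 and 14 counts. Sums of these regions make up the WT3 level given above, and this pair of regions was singled out after its values were seen. The region with more of the members had 593236 counts in all and the other 982674. It was also higher for 8 of 8 macrophage markers (median 0.81), 3 of 3 leukocyte markers (0.66), 6 of 7 epithelial markers (0.71) and 6 of 7 fibroblast markers (0.76), and their part in the difference was not tested.

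**Figure D4:**
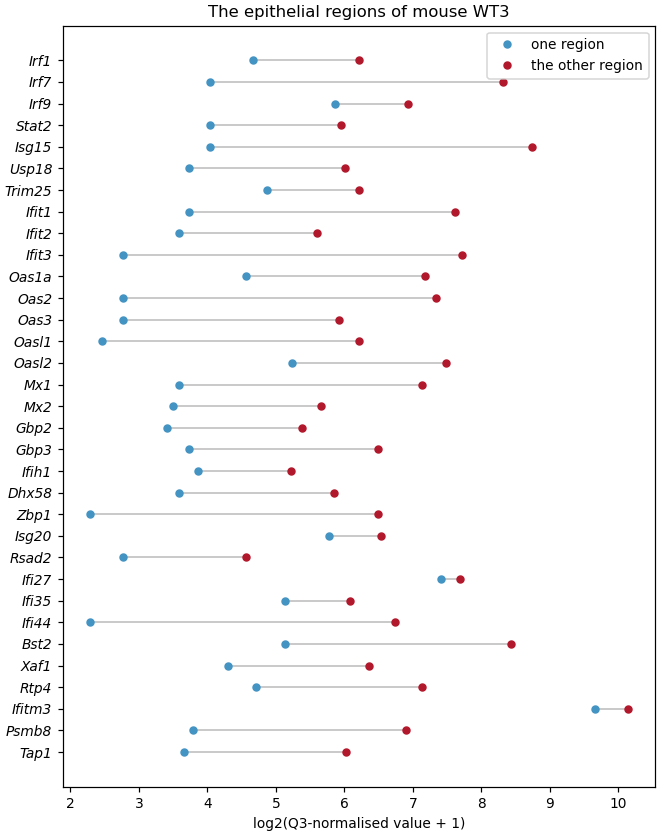
Q3-normalised value of each member, as log2 of the value plus 1, in the 2 epithelial regions of mouse WT3, joined by a grey line. The red region lies to the right of the blue one for 33 of 33 members, widest for Ifit3 (2.77 and 7.71) and narrow for Ifi27 and Ifitm3.

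Regions of the same mouse also varied in PV4, whose 15 epithelial regions had a median member level between 4.53 and 6.72 on that scale, and in PV3, whose 8 ran from 3.32 to 5.19. Isg15 alone went from 4.65 to 9.01 over the PV4 epithelial regions and from 6.90 to 8.81 over its 10 stromal ones. The 4 stromal regions of PV3 had member medians of 4.34 to 5.37, and Ifit3 in them ran from 4.16 to 7.96. The 3 epithelial regions of PV6 and the 3 of WT1 were low throughout, with member medians of 3.04 to 3.36 and 3.07 to 3.46. The 4 epithelial regions of WT8 were all high, at 5.00 to 5.84.

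Between genotypes no member was called in either compartment, and by edgeR neither was any other target (0% in epithelium and 0% in stroma). DESeq2 called 0 members in both compartments. In epithelium 0 members were higher and 1 was lower in PV/N at an unadjusted p under 0.05, where 4.42% of all targets were higher and 3.8% lower. That member was Isg20, at 5.18, 5.65 and 7.15 in PV/N and 6.34, 6.94 and 7.57 in N/N mice (5.91 ± 0.73 and 6.90 ± 0.46, SD). The groups overlapped through PV4 and PV6, and the log2 fold change of -0.79 ± 0.30 had an adjusted p of 0.55, with an exact permutation p of 0.011 for that gene alone. Ifi27 was at 6.70 ± 1.10 in PV/N and 7.65 ± 0.74 (SD) in N/N mice (fold change -0.70 ± 0.39, adjusted p = 0.66, exact p = 0.073). Gbp2 had 3.24, 4.51 and 6.35 and 3.73, 4.21 and 5.51, and Tap1 had 4.26, 5.31 and 5.95 and 4.42, 4.74 and 5.64. Their estimates, 0.64 ± 0.41 and 0.43 ± 0.28, were positive, each with an adjusted p of 0.70 and exact p-values of 0.64 and 0.24. The median log2 fold change over the members was -0.02, with 14 of 33 above 0, beside -0.01 over all targets. With each mouse left out in turn, that median ran from -0.40 to 0.15 and the count above 0 from 1 to 23. For some members the estimate and the mean level per mouse differed in sign. Isg15 and Irf7 had estimates of 0.31 and 0.14. Their mean log2 CPM was 5.51 and 6.23 in PV/N against 5.79 and 6.79 in N/N mice.

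In stroma 1 member was higher and 0 were lower in PV/N at an unadjusted p under 0.05, beside 2.12% and 1.4% of all targets. Mx1, annotated by RefSeq as a transcribed pseudogene in the reference strain like Mx2, had 4.26, 5.02 and 6.38 in PV/N and 4.07, 4.75 and 5.35 in N/N mice (fold change 0.77 ± 0.31, adjusted p = 1.0, exact p = 0.23). Ifit1 had 4.20, 5.08 and 6.98 against 4.07, 4.65 and 6.35, Gbp2 3.46, 5.45 and 7.98 against 4.65, 5.26 and 6.64, and Usp18 4.40, 5.20 and 6.89 against 4.07, 4.61 and 6.42. The groups overlapped in each, and the estimates were 0.85 ± 0.43, 0.87 ± 0.47 and 0.68 ± 0.40, with exact p-values of 0.38, 0.84 and 0.36. The lowest PV/N values of Gbp2 and Usp18 were those of PV2, from 1 and 2 counts. Mean log2 CPM of Gbp2 was 5.52 in PV/N and 5.39 in N/N stroma, closer than its estimate. Estimates were above 0 for 32 of 33 members, with a median of 0.34, where 52.0% of all targets were above 0 and their median was 0.01. Some cell type markers had estimates of the same sign: 4 of 5 smooth muscle markers were above 0 (median 0.76), as were 4 of 5 endothelial (0.32) and 4 of 4 measured T cell markers (0.22). The B and plasma cell list was split, with 3 of 5 measured markers above 0 and 2 below (median 0.04). Within it the plasma cell genes Jchain and Igha stood at 3.15 ± 0.82 and 3.19 ± 1.03 (adjusted p = 0.83 and 1.0). Macrophage markers were above 0 for 1 of 8 (median -0.39). The mean level of the smooth muscle list ran from 5.88 to 7.62 in PV/N and from 5.15 to 6.94 in N/N stroma, and the part of these markers in the members' estimates was not tested. Without PV4 the estimate was above 0 for 7 of 33 members, with a median of -0.15, and in epithelium the count without PV4 fell from 14 to 1 and the median to -0.40. On log2 of the Q3 value plus 1, averaged per mouse, 17 of 33 members were above 0 in stroma, with a median of 0.08. With age as a covariate the stromal median was 0.79 with 0 members called, and PV/N and N/N mice share only part of the age range.

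**Figure D5:**
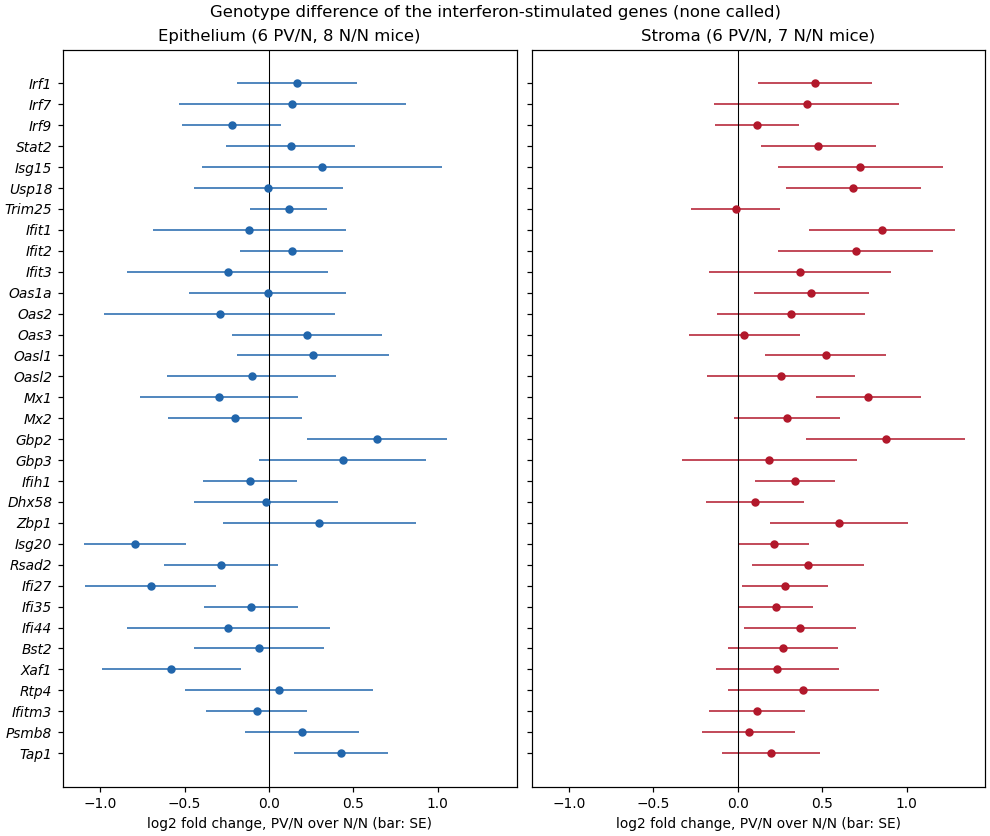
Log2 fold change of each member, PV/N over N/N, with its standard error as a bar, in epithelium (left, 6 and 8 mice) and stroma (right, 6 and 7 mice). Stromal estimates lie above 0 for 32 of 33 members and epithelial ones for 14, and no member was called in either.

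Among the genes upstream of the members, Ifne was higher in epithelium than in stroma, by 0.70 ± 0.23 (adjusted p = 0.015, exact p = 0.063), in 9 of 13 mice. The lowest and highest epithelium stood at 3.17 and 5.49. The lowest and highest stroma stood at 2.39 in PV1 and 4.97 in PV2, from only 2 and 3 counts. The next highest stroma was WT6 at 4.52, from 30 counts. Ifne counts were only 2.94 and 1.70 times the negative probe in the median epithelial and stromal region. PV4 (5.49), WT8 (5.45) and PV5 (5.23) had the highest epithelial Ifne. Between genotypes it was at 0.22 ± 0.41 in epithelium and -0.15 ± 0.33 in stroma. Both receptor chains were higher in stroma in 13 of 13 mice, Ifnar2 and Ifnar1 (log2 fold changes -0.85 ± 0.10 and -0.44 ± 0.08, adjusted p = 8.5e-07 and 5.8e-05).

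The wider pathway lists are read against the shares of all targets, 28.4% higher in epithelium and 34.6% higher in stroma. Of 14 receptor, JAK and STAT genes 2 were higher in epithelium, namely Jak2 (2.37 ± 0.16) and the interferon gamma receptor chain Ifngr2 (1.48 ± 0.12), and 7 were higher in stroma, among them the feedback inhibitor Socs1 (-1.35 ± 0.16). In the interferon gamma list 0 of 12 were higher in epithelium and 9 were higher in stroma, led by Ciita, the master regulator of MHC class II (-1.15 ± 0.14), and Gbp6 (-1.51 ± 0.20). Counts nearer to those shares were found for nucleic acid sensing, with 7 and 7 of 19, for MHC class I presentation, 4 and 4 of 12, with Tapbp higher in epithelium (0.86 ± 0.12) and Tap2 in stroma (-0.75 ± 0.10), and for other interferon-stimulated genes, 10 and 14 of 42, with Ifitm1 (2.43 ± 0.21) and Mndal (-2.10 ± 0.16) at the ends. Ifitm1 thus lay on the same side as its paralogue Ifitm3. Of 6 measured interferon ligand genes 1 was higher in epithelium, namely Ifne, and 4 were higher in stroma. None of the genes in the 6 lists was called between genotypes in epithelium or stroma or by the interaction. The lowest stromal p among them belonged to the chemokine Cxcl10, at 3.24 ± 0.77 with an adjusted p of 0.62.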

How the data were processed

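Regions of mouse uterus were profiled with a whole-transcriptome probe panel on the GeoMx platform. Per the labels and the methods, the authors processed reads with the GeoMx NGS Pipeline (2.3.3.10) and R (4.1.2), and the labels also name Space Ranger and the mm10 build. The deposited count table held 19962 targets and was treated as estimated counts, since 3 targets held values that were not whole and a count of 0 had been replaced by 1. The second deposited table, of 14881 targets, held signal values that the authors had filtered and scaled to the upper quartile (Q3). The deposited per-region probe files were not used.

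Counts of first-plate regions were summed per mouse and compartment, rounded and scaled by TMM. Targets of the filtered table were tested with edgeR's quasi-likelihood test (edgeR 4.0.16, limma 3.58.1, R 4.3.3), as a two-sided test whose p-values were adjusted by Benjamini-Hochberg, with a threshold of 0.05. Compartments were compared with the mouse as a block, because both come from the same animal: the deviations of a mouse's compartments from their means correlated at 0.16 to 0.53. Levels are given as log2 CPM, computed after adding a prior count (2), which draws small counts together. Exact tests flipped signs over mice for pairs or enumerated all splits of mice between genotypes, on unweighted log2 CPM. Full values were given for the 4 called members of largest change in each direction between compartments, the 4 of lowest p per compartment between genotypes, the 3 of lowest p for the interaction, up to 6 with the widest gap of 1 mouse, and Ifne, Ifnar1 and Ifnar2, and 1 further gene under this rule is not reported here. Members of gene lists were named by lowest p, at most 3 per list. Members and lists were chosen with earlier results of these data known. On simulated counts the test recovered 87% of changes of 1 on the log2 scale between compartments, 68% between genotypes in epithelium and 55% in stroma. The changed genes of that simulation were drawn from well-counted targets at large, not from the members. Members spread more widely between mice than such targets, so these rates may be too high for them. Intervals for single regions were not computed, and the number of mice limits the precision. Alternatives were DESeq2 (1.42.0), other scaling and filters, subtraction of the negative probe, limma on Q3 values, tests over regions, both plates, age as a covariate and each mouse left out.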

Additional observations from a re-analysis of the deposited data

Results flagged for a closer look

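Of 148 groups of mice examined, for 33 members and 4 upstream genes in both compartments and genotypes, 8 held a mouse far from the others, and chance alone marks about 1 group in 20. In every one that mouse was the highest. PV4 stood apart in PV/N stroma for Xaf1, an apoptosis-linked protein, at 7.04 log2 CPM where the next mouse was at 5.41, for Irf1 at 8.31 (next 6.81), for the RNA sensor regulator Dhx58 at 5.36 (next 4.48) and for the receptor chain Ifnar2 at 7.41 (next 6.70). WT3 stood apart in N/N epithelium for Ifit2 at 5.30 (next 4.24), from 59 counts, and for Mx2 at 5.33 (next 3.96), from 60 counts. WT8 stood apart in N/N stroma for Ifitm3 at 9.41 (next 8.66) and for Tap1 at 6.16 (next 5.45).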

How the results depend on the processing

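Between compartments 15 members were called, and 14 to 17 with each mouse left out in turn. Without the replicate block, that is without pairing compartments by mouse, 9 were called, 5 higher in epithelium and 4 in stroma. The other alternatives gave 11 (both plates) to 22 (limma fitted to single regions, mice as a random block, 4 and 18). No member was called between genotypes under any alternative except a likelihood ratio test that takes regions as independent samples, which called 6 in epithelium and 13 in stroma, and with each mouse left out the counts ranged from 0 to 0. None was called for the interaction under any alternative, where the range with each mouse left out was likewise 0 to 0. Of 405 compartment values of the 15 called members under alternatives, 374 stayed called in the same direction, 0 were called in the other and 31 were not called, 4 of these with 1 mouse left out. The calls of 7 members held in all 27 alternatives. Mx2 was called in 19 of them, Oasl2 in 21, Tap1 in 22, Bst2 and Oas1a in 23, Oas2 in 25, and Ifit3 and Usp18 in 26. Gbp2 between genotypes reversed without PV4, to -0.0078 in epithelium and -0.21 in stroma, and in stroma on log2 of the Q3 value plus 1, to -0.014, and the cause was not tested. With each mouse left out the epithelial difference of Gbp2 lay between -0.0078 and 0.89, and its stromal one between -0.21 and 1.24. Oas2 between compartments lost its call on log2 of the Q3 value plus 1 (0.46) and with both plates (0.48), and Ifit3 without the replicate block (-0.99). The age covariate moved the median genotype difference over members to 0.38 in epithelium and 0.79 in stroma. Depth limits PV2 most, with 55661 and 76398 counts.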
